A study of Mus musculus with 11 samples.

Results

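The nuclear genes for the subunits of the mitochondrial respiratory chain were followed in CAGE libraries of the mouse hippocampus. CAGE (cap analysis of gene expression) captures the capped 5′ ends of RNAs, so that each read marks a transcription start. Members were all table entries whose symbol is Nduf with a, b, c, s or v and a digit, Sdha to Sdhd, Uqcr, Cox4 to Cox8, or Atp5, leaving out 5 entries with -ps in the symbol. This gave 85 of 22377 genes: 36 of complex I, 4 of complex II, 8 of complex III, 19 of complex IV (with Ndufa4 and Ndufa4l2) and 18 of complex V. Of these, 84 had a mean of at least 1 CPM (the usual CAGE unit, reads scaled to the library total) and entered the tests. The other, Ndufb4c, averaged 0.106 CPM and is annotated as a processed pseudogene. Cox6c2, counted in complex IV and tested at a mean of 1.66 CPM, has the same annotation. Atp5o has 2 entries that overlap on the minus strand of chromosome 16, so how their reads were split is uncertain; Atp5o below is ENSMUSG00000022956.11, and the minor Atp5o entry is ENSMUSG00000116933.1. Many small subunits also have near-identical pseudogene copies, and how such reads were counted is not stated in the labels or files.

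Male C57BL/6N mice gave the tissue, the whole hippocampus, from which total RNA was taken; they were aged 8 to 10 or 65 to 85 weeks, with no age given per library. In photothrombosis (PT), rose bengal at 35 mg/kg was followed by 30 min of light on the left parietal region, so that a cortical infarct formed on that side. The PT groups were 7 d after PT with levetiracetam (LEV, an antiseizure drug, at 5 mg/mL in drinking water), 7 d after PT without LEV, 1 m after PT with LEV, 1 m after PT without LEV, and 2 m after PT once LEV had been withdrawn. The labels give the withdrawal as 2 weeks and the series text as 1 week. When LEV began in the 7 d group is not stated in the labels. Each PT group had 1 library of the infarcted and 1 of the non-infarcted side, and untreated mice without PT (naive) had 1 library. How many mice a library holds, and whether both sides came from the same mice, is not stated either. The p-values thus measure no spread between mice, only that between these libraries, in part borrowed from other genes. In bulk tissue, fewer cells of a type and less RNA per cell cannot be told apart.

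The respiratory chain passes electrons from NADH (complex I) and succinate (complex II) through complexes III and IV to oxygen, and complex V uses the resulting proton gradient to make ATP. Complexes I, III, IV and V are built from a few subunits made inside the mitochondrion and many made from nuclear genes, while complex II is wholly nuclear. Neurons depend on this chain for most of the ATP that ion pumping and synaptic transmission use, and many subunit genes share promoter sites for the factors NRF1, GABPA and YY1. The mitochondrially encoded subunits have no entry in the table and were not analysed here. All 8 hippocampal neuron markers (Snap25, Syt1, Rbfox3, Camk2a, Slc17a7, Prox1, Wfs1 and Neurod6) were detected in every library, at a summed 5978 to 7019 CPM. Library totals ran from 13382623 to 22377376 reads, of which 93.0% to 96.1% lay in listed genes, and 3 reads correspond to 0.134 to 0.224 CPM.

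Members together took 43703 CPM (infarcted side) and 42806 CPM (non-infarcted side) at 1 m with LEV, and 40119 CPM (infarcted side) and 41222 CPM (non-infarcted side) at 1 m without it. At 7 d the sums were 35341 CPM (infarcted side) and 36801 CPM (non-infarcted side) with LEV, and 35301 CPM (infarcted side) and 33607 CPM (non-infarcted side) without it. After withdrawal at 2 m they were 32648 CPM (infarcted side) and 31449.9 CPM (non-infarcted side), against 37254 CPM in the naive library. The 4 libraries of 1 m were thus the highest and the 2 of withdrawal the lowest. Complexes I, III, IV and V each had their highest summed CPM in the 1 m LEV library of the infarcted side and their lowest in the withdrawal library of the non-infarcted side. Complex II ran the other way between these 2 libraries, with 788 CPM at 1 m with LEV (infarcted) and 1141 CPM after withdrawal (non-infarcted), its lowest and highest sums.

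Within each complex the most read members were Ndufa13 and Ndufa5 in complex I (means of 1007 and 826 CPM over 11 libraries), and Sdha and Sdhb in complex II (638 and 255 CPM). They were Uqcr10 and Uqcrq in complex III (669 and 633 CPM), Cox6c and Cox8a in complex IV (2555 and 2258 CPM), and Atp5md and Atp5b in complex V (1647 and 1173 CPM). CAGE counts 1 end per transcript, so these levels are not scaled by length. The steadiest members were Ndufv2, the iron-sulfur partner of the NADH-binding subunit, whose highest library was 1.16 times its lowest, and Uqcrc1, a core subunit of complex III, at 1.17 times. Cox4i1, the ubiquitous form of complex IV subunit IV, ran from 1451 to 1699 CPM. The widest range among tested members was that of Cox8b, at 19.1 times.

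**Figure D1:**
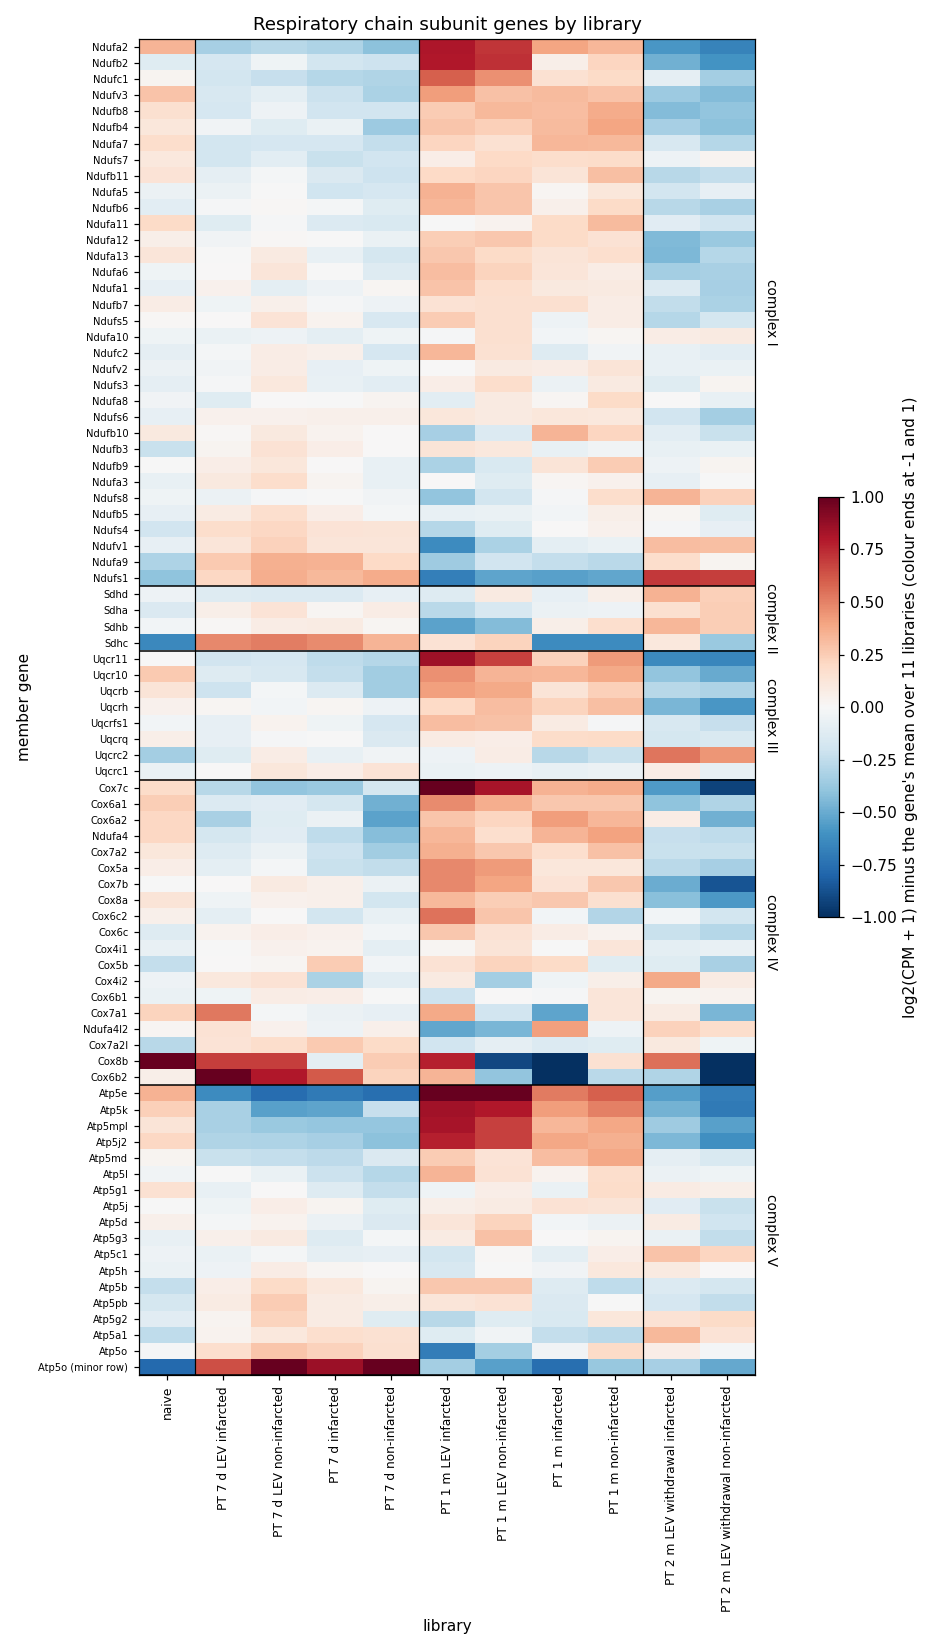
Colour gives log2(CPM + 1) of 83 of the 84 tested members in 11 libraries minus the member's mean over all libraries, red for higher and blue for lower, with rows ordered within each complex by the difference between 1 m and 7 d. The top rows of complexes I, III, IV and V are red in the 1 m libraries and blue in the 7 d and 2 m libraries, and Ndufs1 shows the opposite order of colours.

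Between 1 m and 7 d after PT, many small accessory subunits were higher at 1 m, and a few members, the core complex I subunit Ndufs1 among them, were lower. Here rose and fell mean higher and lower at 1 m, in separate libraries of each time. Time therefore cannot be told apart from other differences between these libraries. Of 84 members, 21 rose, against 5.71% of all 16057 genes tested, and 8 fell, against 10.1% of all genes (limma on log2(CPM + 1) over 4 condition means, adjusted p under 0.05). With TMM scaling the counts were 5 higher and 4 lower among members, and 163 and 147 among all genes in place of 917 and 1620. The 5 were Atp5e, Atp5j2, Atp5k, Atp5mpl and Ndufa2, and the 4 were Ndufs1, Cox6b2, Cox8b and the minor Atp5o entry. The members' median log2 difference was 0.11, beside -0.06 over all genes, and 55 members lay above 0. In 37 members all 4 libraries of 1 m were above all 4 of 7 d, a pattern held by 10.8% of all genes, and in 10 all were below, against 19.1%.

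Complex V held the members that differed most. Atp5e had 754 CPM (infarcted side) and 697 CPM (non-infarcted side) at 1 m with LEV, and 416 CPM (infarcted side) and 441 CPM (non-infarcted side) at 1 m without it. At 7 d it had 187 CPM (infarcted side) and 171 CPM (non-infarcted side) with LEV, and 178 CPM (infarcted side) and 172 CPM (non-infarcted side) without it. Every 1 m library was thus above every 7 d library, with the pair on LEV highest, for this gene of the epsilon subunit of the central stalk (log2 difference 1.65 ± 0.15 (SE), adjusted p = 7.28e-08). The exact Poisson 95% interval of the infarcted 1 m LEV value was 740.3 to 767 CPM, so counting error was small beside the differences. The naive library had 371 CPM, and the withdrawal libraries had 198 CPM (infarcted side) and 179 CPM (non-infarcted side). The 7 d and 2 m libraries were thus alike in level, and the naive library lay near the 1 m libraries without LEV.

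Other complex V members that rose belong to the membrane part around the proton channel. Atp5k, the e subunit, had 144 to 194 CPM at 1 m, against 73.5 to 91.8 CPM at 7 d (log2 difference 1.05 ± 0.13 (SE), adjusted p = 5.62e-06). Atp5mpl, a small proteolipid, had 675 to 949 CPM at 1 m, against 409.9 to 428 CPM at 7 d (log2 difference 0.92 ± 0.14 (SE), adjusted p = 9.05e-05). Atp5j2, the f subunit, had 1019 to 1366 CPM at 1 m, against 599.8 to 648 CPM at 7 d (log2 difference 0.89 ± 0.15 (SE), adjusted p = 0.000208). In these 3 genes the libraries of 1 m did not overlap those of 7 d. Atp5md, a small subunit that stabilises dimers of the enzyme, had 1788 to 2126 CPM at 1 m, against 1357 to 1475 CPM at 7 d (log2 difference 0.49 ± 0.16 (SE), adjusted p = 0.039). The Atp5md call was lost in 6 of 8 fits without 1 library and in 6 of 11 other settings, TMM scaling and edgeR among them. The catalytic subunits of the head did not pass the test: the log2 difference was -0.06 for Atp5b (adjusted p = 0.84) and -0.28 for Atp5a1 (adjusted p = 0.173). The 3 genes of the c ring did not pass either, with log2 differences of 0.15 for Atp5g1, 0.10 for Atp5g3 and -0.16 for Atp5g2. Both entries of Atp5o, the oligomycin sensitivity subunit of the outer stalk, fell. Its main entry had 221 to 409 CPM at 1 m, against 401 to 434 CPM at 7 d (log2 difference -0.43 ± 0.14 (SE), adjusted p = 0.042), ranges that overlapped. On the non-infarcted side without LEV the main entry had 409 CPM at 1 m and 401 CPM at 7 d. Its call was lost in 4 of 8 fits without 1 library. In 8 of 11 other settings it was lost too, TMM scaling, edgeR and DESeq2 among them. The minor entry had 0.598 to 1.13 CPM at 1 m, against 3.23 to 4.69 CPM at 7 d (log2 difference -1.41 ± 0.18 (SE), adjusted p = 1.06e-05).

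In complex IV, Cox7c, a small subunit beside the catalytic core, changed most among the ubiquitous members. Cox7c had 755 CPM (infarcted side) and 672 CPM (non-infarcted side) at 1 m with LEV, and 483 CPM (infarcted side) and 489 CPM (non-infarcted side) at 1 m without it. At 7 d it had 312 CPM (infarcted side) and 287 CPM (non-infarcted side) with LEV, and 292 CPM (infarcted side) and 336 CPM (non-infarcted side) without it. All 4 libraries of 1 m were above those of 7 d (log2 difference 0.94 ± 0.14 (SE), adjusted p = 0.000112). The withdrawal libraries had 256 CPM (infarcted side) and 198 CPM (non-infarcted side), below every other library, and the naive library had 429 CPM. Cox6a1, Ndufa4, Cox7a2 and Cox5a also rose, with log2 differences of 0.57, 0.55, 0.46 and 0.43 and adjusted p values of 0.0139, 0.0143, 0.034 and 0.0238. With TMM scaling none of these passed, nor did Cox7c. The most read members did not pass: Cox6c had 2606 to 3057 CPM at 1 m, against 2495 to 2657 CPM at 7 d (adjusted p = 0.744), and Cox8a 2482 to 2777 CPM at 1 m, against 1960.2 to 2299.6 CPM at 7 d (adjusted p = 0.282).

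In complex III, 3 of 8 members rose, against 5.71% of all genes, though none of these passed with TMM scaling, and none fell. They were the small subunits Uqcr11 with 529 to 815 CPM at 1 m, against 371 to 403 CPM at 7 d (log2 difference 0.77 ± 0.14 (SE), adjusted p = 0.000538), Uqcr10 with a log2 difference of 0.59 (adjusted p = 0.00535) and Uqcrb, which helps to form the quinone site, with 0.47 (adjusted p = 0.0094). Uqcrc2, a core subunit, stood at 113 to 144 CPM at 1 m, against 126 to 144 CPM at 7 d (log2 difference -0.08, adjusted p = 0.703). After withdrawal its libraries had 199 CPM (infarcted side) and 186 CPM (non-infarcted side), above all others, and the naive library had 108 CPM, the lowest.

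In complex I, none of the 7 genes of the catalytic core rose and 2 fell. Of the 28 accessory members 7 rose and 1 fell. Over all genes 5.71% rose and 10.1% fell, and 7 core genes are too few to compare with these shares. Ndufs1 had 64.1 CPM (infarcted side) and 71.3 CPM (non-infarcted side) at 1 m with LEV, and 70.8 CPM (infarcted side) and 72.0 CPM (non-infarcted side) at 1 m without it. At 7 d it had 119.9 CPM (infarcted side) and 134 CPM (non-infarcted side) with LEV, and 129.9 CPM (infarcted side) and 134 CPM (non-infarcted side) without it. The groups did not overlap, and Ndufs1, the largest iron-sulfur subunit, had a log2 difference of -0.89 ± 0.12 (SE, adjusted p = 1.94e-05). Its withdrawal libraries were the highest of all, with 169.9 CPM (infarcted side) and 168 CPM (non-infarcted side), and the naive library had 78.0 CPM. Ndufv1, the NADH-binding subunit, had 162 to 239 CPM at 1 m, against 273 to 294 CPM at 7 d (log2 difference -0.43 ± 0.13 (SE), adjusted p = 0.0287). This call was lost in 3 of 8 fits without 1 library. It was also lost in 6 of 11 other settings, TMM scaling, edgeR and DESeq2 among them, whereas that of Ndufs1 was lost in 0 of 8 and 1 of 11. Of the core genes that did not pass, the log2 difference was, for example, 0.09 for Ndufs3, 0.33 for Ndufs7, -0.08 for Ndufs8 and 0.10 for Ndufv2.

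Of the accessory members, Ndufa2 rose most, with 566 to 788 CPM at 1 m, against 338 to 371 CPM at 7 d (log2 difference 0.89 ± 0.14 (SE), adjusted p = 0.000104). Ndufb2 had 399 to 667 CPM at 1 m, against 332 to 371 CPM at 7 d (log2 difference 0.60, adjusted p = 0.00568), and Ndufc1 471 to 645 CPM at 1 m, against 345 to 375 CPM at 7 d (log2 difference 0.60, adjusted p = 0.00386). The ranges of 1 m and 7 d did not overlap in these 3 genes. Ndufv3, Ndufb8, Ndufb4 and Ndufa7 rose with log2 differences of 0.53, 0.46, 0.45 and 0.44. Ndufa9, which sits where the matrix and membrane arms of complex I meet, fell, with 82.6 to 92.5 CPM at 1 m, against 122 to 136 CPM at 7 d (log2 difference -0.55 ± 0.12 (SE), adjusted p = 0.0027). With TMM scaling, Ndufa2 alone of these accessory members passed. With edgeR, Ndufb2, Ndufb4, Ndufb8, Ndufa7 and Ndufa9 did not pass. The most read complex I members, Ndufa13 and Ndufa5, did not pass, with log2 differences of 0.23 and 0.29.

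Complex II had no member that rose. Sdhc had 41.9 CPM (infarcted side) and 44.3 CPM (non-infarcted side) at 1 m with LEV, and 24.1 CPM (infarcted side) and 24.0 CPM (non-infarcted side) at 1 m without it. At 7 d it had 53.2 CPM (infarcted side) and 54.5 CPM (non-infarcted side) with LEV, and 52.9 CPM (infarcted side) and 48.0 CPM (non-infarcted side) without it. Sdhc, a membrane anchor of succinate dehydrogenase, was thus lower at 1 m in all 4 libraries, and lowest in the pair without LEV (log2 difference -0.68 ± 0.14 (SE), adjusted p = 0.00252). The naive library had 23.9 CPM, close to that pair, and the withdrawal libraries had 40.7 CPM (infarcted side) and 29.0 CPM (non-infarcted side). The call of Sdhc was lost in 0 of 8 fits without 1 library. It was lost in 4 of 11 other settings, TMM scaling, edgeR and DESeq2 among them. The other members did not pass: the log2 difference was -0.21 for the flavoprotein subunit Sdha, -0.23 for the iron-sulfur subunit Sdhb and 0.11 for the second anchor Sdhd.

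**Figure D2:**
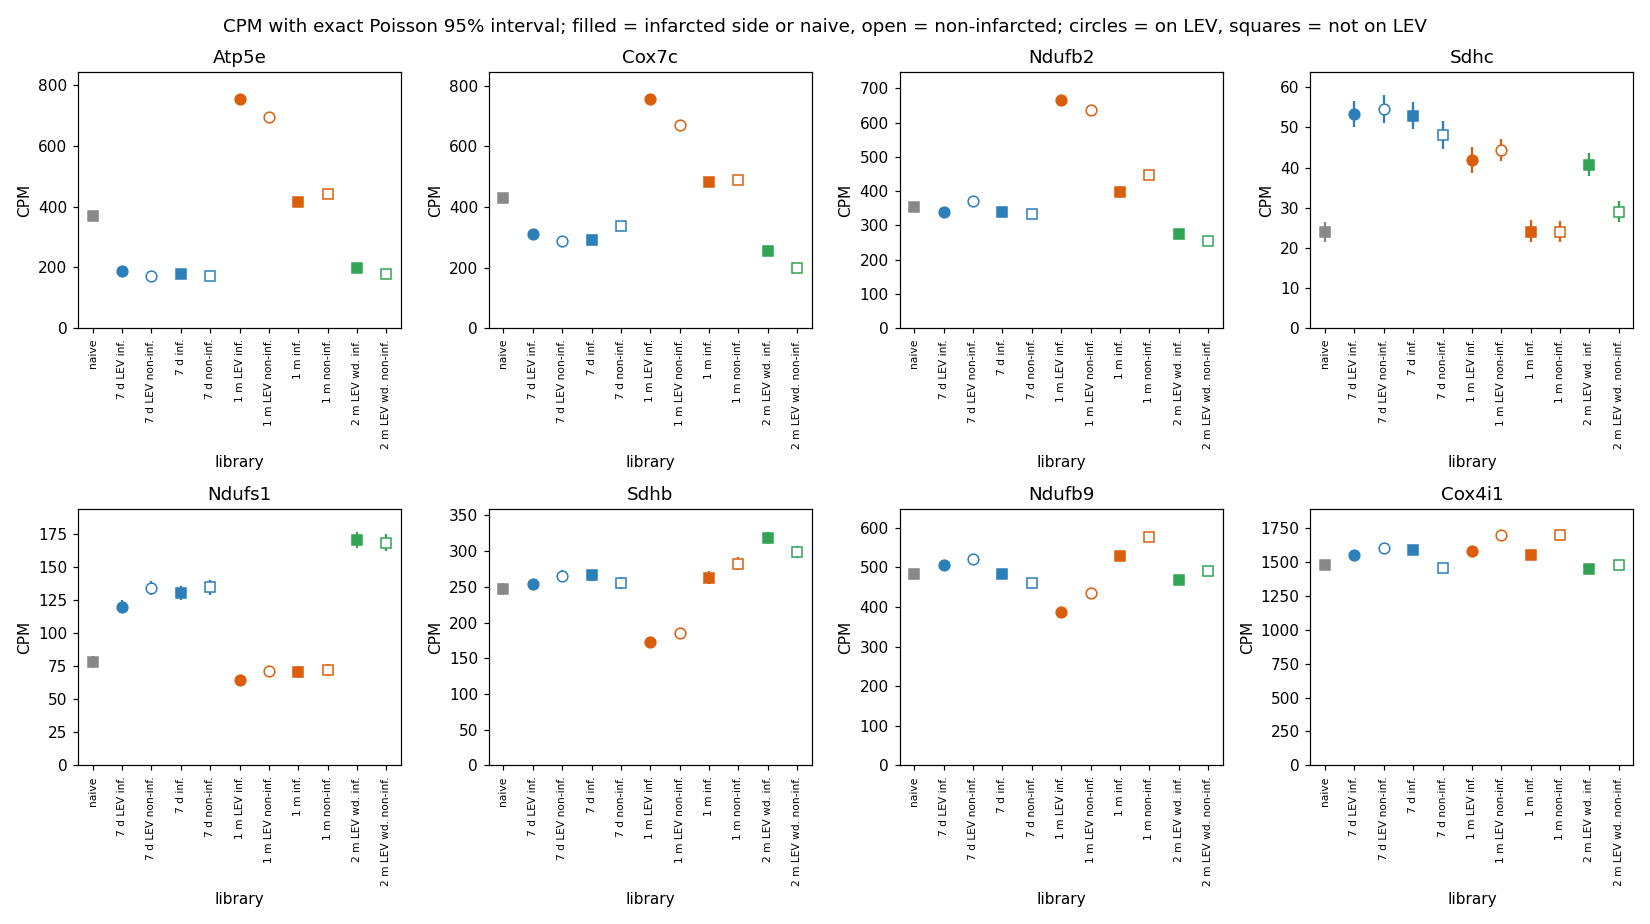
CPM of 8 members in each library, with exact Poisson 95% intervals, mostly smaller than the symbols; filled symbols are the infarcted side or naive, open symbols the non-infarcted side, circles libraries on LEV and squares libraries not on LEV. Atp5e and Cox7c are highest in the 1 m LEV pair, Ndufs1 is lowest in the naive and 1 m libraries, and Sdhb and Ndufb9 dip in the 1 m LEV pair alone, while Cox4i1 lies between 1451 and 1699 CPM.

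Promoter windows from RefSeq (assembly GRCm38.p6, 250 bases before to 50 after the start) matched 67 of 84 member symbols and gave 72 windows of 300 bases. They are shown for 4 members that rose and 2 that fell, because these moved together or apart between 1 m and 7 d. Each sequence runs from 110 bases before the start to 50 after it, 5′ to 3′. Capitals mark the letters GCATGCGC (NRF1 core), CCGGAAG (GABPA) or AAGATGGCG (YY1) on either strand; the GABPA and YY1 letters can overlap in AAG, and the NRF1 core can overlap its own reverse strand, as it does in Atp5k.
Atp5e (chr2:174464052-174464211, minus strand): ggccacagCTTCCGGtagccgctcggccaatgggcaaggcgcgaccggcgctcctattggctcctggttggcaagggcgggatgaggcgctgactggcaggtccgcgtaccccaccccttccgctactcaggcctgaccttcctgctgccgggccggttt
Atp5k (chr5:108434350-108434509, minus strand): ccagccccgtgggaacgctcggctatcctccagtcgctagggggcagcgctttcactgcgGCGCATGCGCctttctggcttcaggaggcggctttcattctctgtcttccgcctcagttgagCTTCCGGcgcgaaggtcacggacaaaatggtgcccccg
Cox7c (chr13:86046746-86046905, minus strand): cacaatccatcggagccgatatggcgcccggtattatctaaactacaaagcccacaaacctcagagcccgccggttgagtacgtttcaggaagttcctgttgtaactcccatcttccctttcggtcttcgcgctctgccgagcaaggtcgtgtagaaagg
Uqcr11 (chr10:80406772-80406931, minus strand): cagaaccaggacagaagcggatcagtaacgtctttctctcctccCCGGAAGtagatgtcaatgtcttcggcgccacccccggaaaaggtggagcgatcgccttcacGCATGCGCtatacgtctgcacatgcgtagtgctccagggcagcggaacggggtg
Ndufv1 (chr19:4012706-4012865, minus strand): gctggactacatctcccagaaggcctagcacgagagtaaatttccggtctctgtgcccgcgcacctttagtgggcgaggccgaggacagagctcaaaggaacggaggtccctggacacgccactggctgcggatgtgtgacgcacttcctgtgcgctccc
Ndufa9 (chr6:126849095-126849254, minus strand): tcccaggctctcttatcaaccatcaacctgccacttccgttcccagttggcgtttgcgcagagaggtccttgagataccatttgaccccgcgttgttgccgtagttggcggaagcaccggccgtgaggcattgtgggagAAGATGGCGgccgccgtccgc
The NRF1 core stood in 13.9% of the members' windows and in 2.71% of all 32851 promoter windows. The GABPA letters stood in 23.6% of the members' windows and 8.86% of all, and the YY1 letters in 9.72% and 1.40%. Among the windows of members that rose, 3 of 18 held the NRF1 core, and among those of members that fell 0 of 5 did, numbers too small to compare.

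The members that rose were short. Their median coding length was 264 bases (156 to 1404), against 584.5 bases (210 to 2181) in the 8 that fell and 442.5 bases in the members not called. Over 83 members with a coding length in GENCODE M21, the log2 difference between 1 m and 7 d had a Spearman correlation of -0.56 with coding length, beside -0.06 over 13672 protein-coding genes. The same correlation was -0.57 for the difference between sides, beside 0.02, and -0.35 for LEV, beside -0.08. With median transcript length the members' correlations were weaker, at -0.37 for time, -0.42 for sides and -0.23 for LEV. Over protein-coding genes these were 0.0002, 0.02 and -0.008. Genes are not independent replicates, all points share the same libraries, and whether fragment size or RNA quality differed between libraries was not tested.

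**Figure D3:**
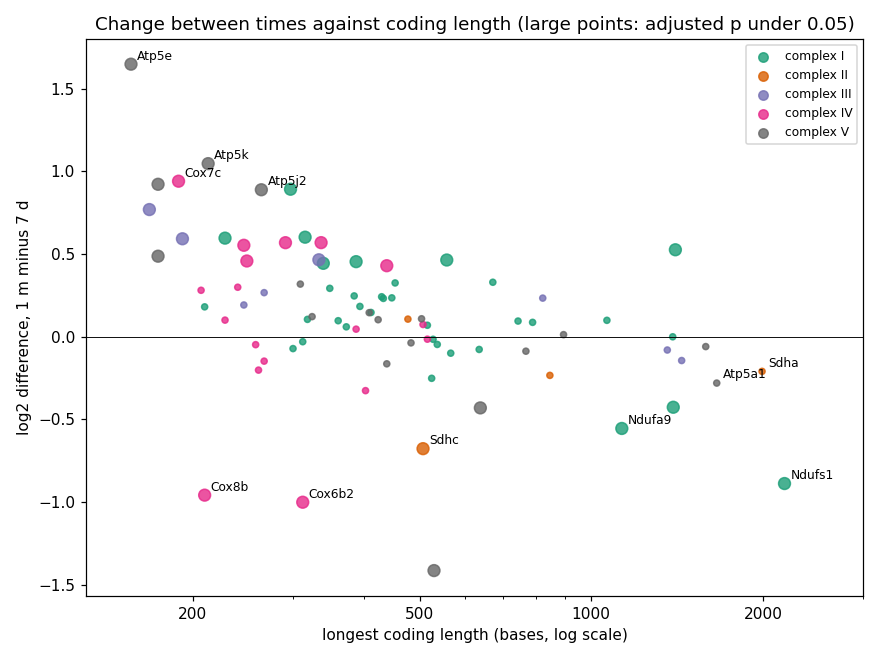
Log2 difference between 1 m and 7 d against the longest annotated coding length (log axis) of 83 members, coloured by complex, with large points for adjusted p under 0.05. The shortest member, Atp5e at 156 bases, lies highest at 1.65, and Ndufs1 at 2181 bases lies at -0.89.

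Across 11 libraries, the members most like Atp5e were Atp5mpl, Atp5j2 and Ndufc1 (Pearson r of 0.99, 0.98 and 0.98 on log2(CPM + 1)). Those most like Ndufs1 were Sdha, Atp5a1 and Ndufv1 (0.92, 0.89 and 0.88), and those most like Sdhb were Ndufs8 and Ndufv1 (0.93 and 0.90). These values describe libraries that share their scaling to the library total.

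Markers of other cells also moved between these times. All 8 choroid plexus markers fell, at a summed 57.6 to 1785 CPM at 1 m, against 3153 to 4816 CPM at 7 d, as did 4 of 6 reactive astrocyte markers and 2 of 8 microglia markers, while 1 of 8 neuron markers (Slc17a7) rose. In these 4 lists no marker was at 0 in any library. Of other lists, 2 of 7 smooth muscle and pericyte markers (Rgs5 and Tagln) and 1 of 6 meningeal fibroblast markers (Igf2) fell. Of 2 blood markers tested, 1 (Hbb-bs) rose. Over all genes 5.71% rose and 10.1% fell. Without the 2 libraries lowest in choroid plexus markers (1 m infarcted, and 1 m LEV non-infarcted), 20 members rose (3.95% of all genes) and 6 fell (7.07%). Leaving out these 2 was a choice made after seeing the data. When 1 library was left out, 13 to 22 members rose (2.34% to 5.91% of all genes) and 5 to 8 fell (4.27% to 9.37%). The fewest (13 and 5, beside 2.34% and 4.27%) came without the infarcted 1 m library, and 18 of the 29 calls were kept in every case.

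Against the naive library no test was possible, and a member was counted where CPM differed by at least 0.5 on the log2 scale in the same direction on both sides. At 7 d with LEV, 5 members were higher (3.07% of all genes) and 5 lower (3.59%). At 7 d without LEV, 4 were higher (3.48%) and 6 lower (4.22%). At 1 m with LEV, 8 were higher (2.3%) and 1 lower (3.5%), and at 1 m without LEV none was higher (0.442%) and 1 lower (1.76%). At 2 m after withdrawal, 2 were higher (8.74%) and 12 lower (7.81%). These comparisons share the naive library, so the counts are given side by side only.

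Members higher at 7 d with LEV than in naive were Ndufs1, Sdhc, Ndufa9, Cox6b2 and the minor Atp5o entry. Those lower were Atp5e, Ndufa2, Atp5k, Atp5j2 and Cox8b. At 7 d without LEV, Ndufs1, Sdhc, Ndufa9 and the minor Atp5o entry were higher, and Atp5e, Atp5j2, Ndufa2, Atp5mpl, Uqcr10 and Cox8b lower. Members higher at 1 m with LEV were Atp5e, Atp5k, Atp5mpl, Atp5b, Cox7c, Uqcr11, Ndufb2 and Sdhc. Ndufb2, for one, had 667 CPM (infarcted side) and 637 CPM (non-infarcted side) there, and 353 CPM in the naive library. Cox8b was lower than naive in all 5 PT groups. After withdrawal, Ndufs1 and Uqcrc2 were higher, and the 12 lower members included Cox7c, Atp5j2, Ndufa2 and Uqcr11.

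LEV was compared with no LEV over both times and sides. Of the members 1 passed, Cox8b, where 0.0125% of all genes were called higher and 0.00623% lower. The members' median log2 difference was 0.06, beside -0.02 over all genes, and 59 lay above 0. An unadjusted p under 0.05 was held by 7 of 84 members and by 980 of all 16057 genes tested. Sdhc had a log2 difference of 0.45 ± 0.14 (SE, adjusted p = 0.624), Ndufb2 of 0.36 ± 0.14 (adjusted p = 0.794), Uqcr11 of 0.27 and Cox5a of 0.26. These 4 have the greatest differences, at 5 CPM or more, among 18 members that were higher with LEV in 4 of 4 pairs, a pattern held by 8.65% of all genes. Only Ndufa8 (-0.09) and Ndufs1 (-0.07) were lower in 4 of 4 pairs, against 12.4% of all genes. None of the 6 named passed.

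Cox8b, the muscle form of complex IV subunit VIII, had 25.9 CPM (infarcted side) and 7.33 CPM (non-infarcted side) at 1 m with LEV, and 2.17 CPM (infarcted side) and 16.4 CPM (non-infarcted side) at 1 m without it. At 7 d it had 24.3 CPM (infarcted side) and 24.3 CPM (non-infarcted side) with LEV, and 13.7 CPM (infarcted side) and 17.7 CPM (non-infarcted side) without it. It was higher with LEV in 3 of 4 pairs, and lower on the non-infarcted side at 1 m (log2 difference 0.81 ± 0.14 (SE), adjusted p = 0.0472). Without the 2 libraries low in choroid plexus markers it no longer passed, and leaving out 1 library gave log2 differences of 0.20 to 1.43, with the call lost in 5 of 8 cases: without either non-infarcted library of 7 d, either 1 m library without LEV, or the infarcted 1 m LEV library.

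The difference with LEV was not the same at both times for 8 members. In a fit over 8 libraries with side as a term, it was greater at 1 m than at 7 d for 4 members, against 1.59% of all genes, and smaller for 4, against 1.2%. The greater were Atp5e (0.72 ± 0.11, adjusted p = 0.0161), Sdhc (0.72 ± 0.12, adjusted p = 0.0199), Cox7c (0.61 ± 0.13, adjusted p = 0.0393) and Ndufb2 (0.54 ± 0.11, adjusted p = 0.0373), as log2 differences of differences ± SE. The smaller were Atp5o (-0.62 ± 0.14, adjusted p = 0.0424), Sdhb (-0.59 ± 0.10, adjusted p = 0.0206), Ndufb9 (-0.55 ± 0.11, adjusted p = 0.0358) and Ndufb10 (-0.54 ± 0.12, adjusted p = 0.0455). With no filter on low values and with no trend, 0 of these 8 calls were made, against 0.0% and 0.00623% of all genes as greater and 0.00449% and 0.00623% as smaller. The median over members was -0.01, beside -0.05 over all genes. Sides may share mice, in which case these p-values are too small.

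At 1 m, Atp5e was 0.86 higher with LEV on the infarcted side and 0.66 on the other (log2), whereas at 7 d these differences were 0.08 and -0.01. Sdhc was 0.77 higher on the infarcted and 0.86 on the non-infarcted side at 1 m, and 0.01 and 0.18 at 7 d, so that the libraries with and without LEV lay further apart at 1 m. Sdhb had 173 CPM (infarcted side) and 186 CPM (non-infarcted side) at 1 m with LEV, and 263 CPM (infarcted side) and 283 CPM (non-infarcted side) at 1 m without it. At 7 d it had 254 CPM (infarcted side) and 265 CPM (non-infarcted side) with LEV, and 266 CPM (infarcted side) and 255 CPM (non-infarcted side) without it. The 1 m LEV pair was thus the lowest of all libraries for this iron-sulfur subunit, and the withdrawal pair, with 318 CPM (infarcted side) and 299 CPM (non-infarcted side), the highest. Sdhb and Sdhc, 2 subunits of the same complex, thus passed in opposite directions.

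Ndufb9 and Ndufb10, accessory subunits of the membrane arm, were lower with LEV at 1 m on both sides. Ndufb9 had 388 CPM (infarcted side) and 435 CPM (non-infarcted side) with LEV, and 529.6 CPM (infarcted side) and 576 CPM (non-infarcted side) without it. Ndufb10 had 296 CPM (infarcted side) and 338 CPM (non-infarcted side) with LEV, and 470.4 CPM (infarcted side) and 432 CPM (non-infarcted side) without it. Atp5o had 221 CPM (infarcted side) and 283 CPM (non-infarcted side) with LEV, and 349 CPM (infarcted side) and 409 CPM (non-infarcted side) without it. In these 3 genes the 1 m LEV pair was below every library without LEV at 1 m. Ndufb2, of the same arm, was higher, with 667 CPM (infarcted side) and 637 CPM (non-infarcted side) with LEV, and 399 CPM (infarcted side) and 446 CPM (non-infarcted side) without it.

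Each of these 8 calls was lost in 4 to 7 of the 8 fits that left out 1 library, with no change of direction, and none passed without either LEV library of 7 d or either LEV library of 1 m. Slc17a7, a neuron marker, had 1603 to 1606 CPM at 1 m with LEV, and 771 to 781 CPM at 1 m without it (difference of differences 1.22, adjusted p = 0.0156), and the other 7 neuron markers did not pass; the part of cell makeup in these results was not tested.

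**Figure D4:**
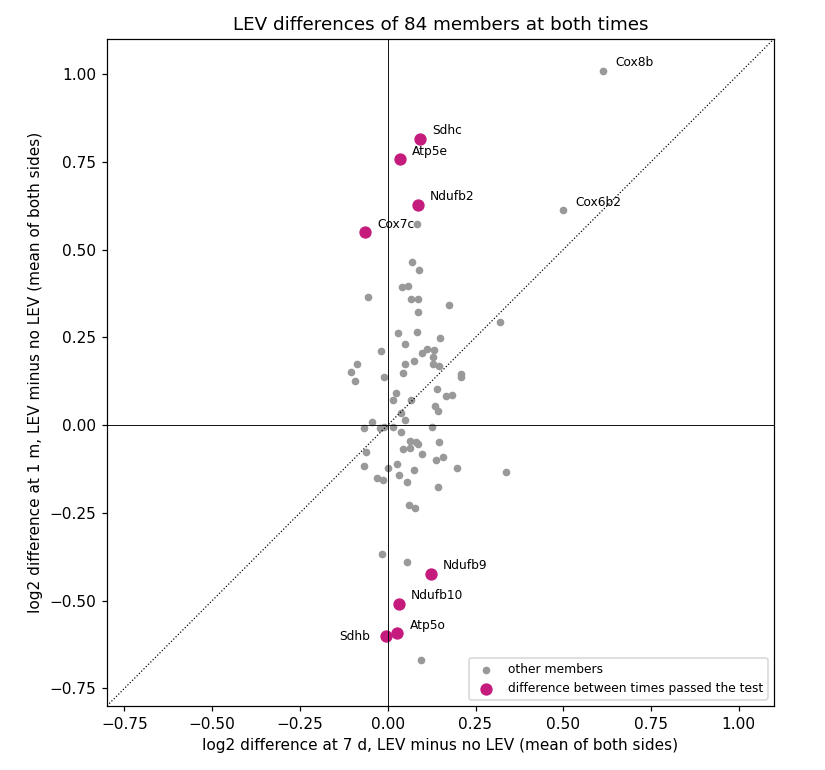
Log2 difference with LEV minus without LEV, averaged over both sides, at 7 d (horizontal) and 1 m (vertical) for 84 members; large points are the 8 members whose difference between times passed the test, and the dotted line marks equal differences. The 7 d differences of these 8 members lie close to 0, while at 1 m Sdhc, Atp5e, Ndufb2 and Cox7c lie above and Ndufb9, Ndufb10, Atp5o and Sdhb below 0.

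No member passed the test between the infarcted and the non-infarcted side, and 0.0% of all genes did (limma over 10 PT libraries with condition as a block). All 8 microglia markers and all 6 reactive astrocyte markers were higher on the infarcted side, with median log2 differences of 0.35 and 0.43. None of these markers passed either, so a lack of calls does not show that the sides were alike. At an unadjusted p under 0.05 there were 2 members and 1221 genes, and edgeR and DESeq2 called 0 members. The members' median was 0.01, and the 95% interval of the difference held 0 for 82 of 84 members and lay within 0.5 of 0 on the log2 scale for 81. Of 84 members, 2 were higher on the infarcted side in all 5 pairs, against 5.26% of all genes, and 4 lower, against 2.71%. They were Atp5j2 (0.08 ± 0.05) and Ndufs6 (0.04 ± 0.04), higher on the infarcted side, and Sdha (-0.07), Ndufs7 (-0.06), Ndufa10 (-0.06) and Ndufv2 (-0.06), lower, all without passing. How the side difference changed with time or with LEV gave no call among members either, against 0.0% and 0.168% of all genes.

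Withdrawal at 2 m was compared with LEV at 1 m without a test, by a log2 difference of at least 0.5 on both sides. Here 23 members were lower, against 8.43% of all genes, and 4 higher, against 13.0%. Time after PT and withdrawal cannot be told apart in this comparison. The lower members were Ndufa2, Ndufa6, Ndufa12, Ndufb2, Ndufb4, Ndufb6, Ndufb8, Ndufc1 and Ndufv3 of complex I, Uqcr10, Uqcr11, Uqcrb and Uqcrh of complex III, and Cox5a, Cox6a1, Cox6b2, Cox7b, Cox7c and Cox8a of complex IV, with Atp5e, Atp5j2, Atp5k and Atp5mpl of complex V. The higher were Ndufs1, Ndufv1, Sdhb and Ndufa4l2. Atp5e was -1.93 on the infarcted and -1.95 on the non-infarcted side (log2), Cox7c -1.56 and -1.75, and Ndufs1 1.39 and 1.23. Cox7b, a ubiquitous subunit, had 409 CPM (infarcted side) and 317 CPM (non-infarcted side) after withdrawal, against 809 CPM (infarcted side) and 759 CPM (non-infarcted side) at 1 m with LEV. The members' median difference was -0.28 on the infarcted and -0.35 on the non-infarcted side, beside 0.13 and 0.09 over all genes.

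Tissue-restricted forms of complex IV subunits were low throughout: Cox6a2, Cox8b and Cox7a1, known from heart and skeletal muscle, averaged 18.5, 18.2 and 9.83 CPM. Cox6b2, known from testis, averaged 14.4 CPM, Ndufa4l2 4.50 CPM and Cox4i2 1.98 CPM, while Cox7b2 and Cox8c had no entry and so were not analysed here. Their ubiquitous partners Cox6a1, Cox8a, Cox7a2 and Cox6b1 averaged 1339, 2258, 987 and 1017 CPM. Of 6 such forms, Cox6a2 was higher at 1 m than at 7 d (log2 difference 0.57, adjusted p = 0.00545), and Cox6b2 (-1.0003, adjusted p = 2.51e-05) and Cox8b (-0.96, adjusted p = 7.75e-05) fell. Cox6b2 had 5.90 to 16.6 CPM at 1 m, against 15.2 to 27.4 CPM at 7 d, ranges that overlapped. Cox7a1 (-0.15), Ndufa4l2 (-0.20) and Cox4i2 (-0.01) did not pass.

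Cox8b had its 3 lowest values where the choroid plexus gene Ttr was lowest. At 1 m without LEV on the infarcted side Cox8b had 2.17 CPM (exact Poisson 95% interval 1.45 to 3.11) and Ttr 36.2 CPM, and at 1 m with LEV on the non-infarcted side they had 7.33 and 80.7 CPM. After withdrawal on the non-infarcted side they had 5.69 and 1211 CPM, and in naive 41.3 and 4027 CPM. Over 11 libraries r with Ttr was 0.84 for Cox8b, 0.66 for Cox6b2 and 0.65 for Cox7a1 on log2(CPM + 1), and -0.49 for Cox6a2. Without the 2 libraries lowest in choroid plexus markers, the difference of Cox8b between 1 m and 7 d was 0.08, with the call lost also without the 1 m infarcted library alone (-0.34, adjusted p = 0.279) or the 1 m LEV non-infarcted library alone (-0.54, adjusted p = 0.0568). The 7 striated muscle markers summed to 0.119 to 2.37 CPM, with 1 to 5 of them at 0 in each library.

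**Figure D5:**
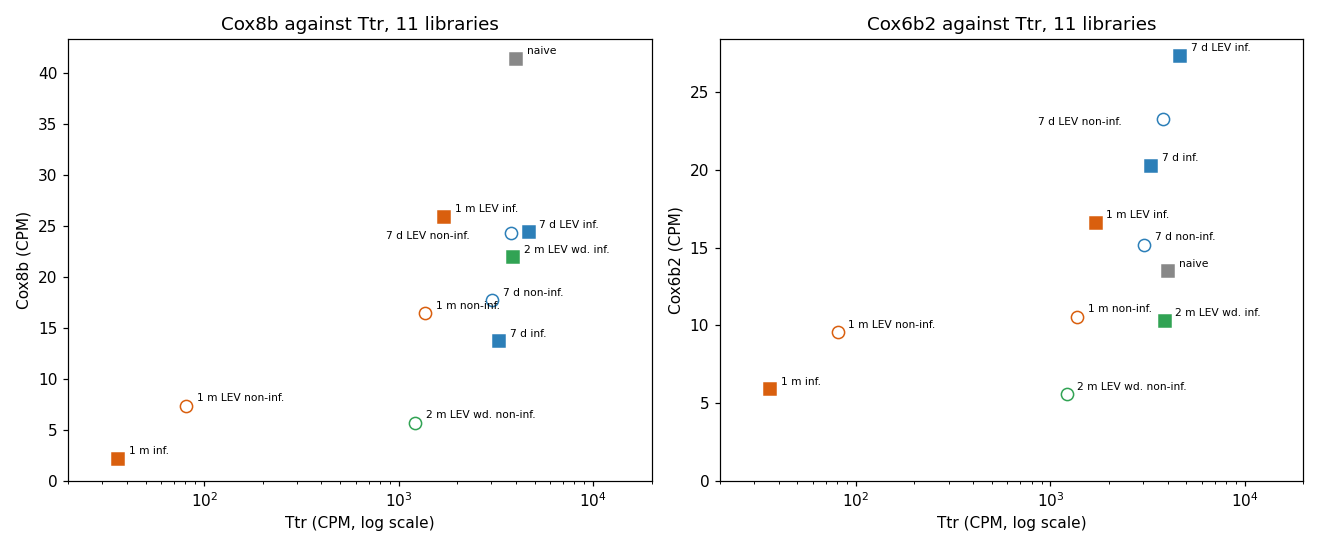
CPM of Cox8b (left) and Cox6b2 (right) against CPM of Ttr (log axis) in 11 libraries, coloured by time, with filled squares for the infarcted side or naive and open circles for the non-infarcted side. The infarcted 1 m library without LEV lies lowest for Ttr, at 36.2 CPM, with 2.17 CPM of Cox8b, and naive is highest for Cox8b at 41.3 CPM.

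Gene lists of neighbouring pathways were read in the same comparison of 1 m with 7 d, in which 5.71% of all genes rose and 10.1% fell. No list was tested as a set, and the counts below are to be read beside these shares. Of 47 assembly factors 7 rose (Pet100 at 1.05, Uqcc2 at 0.73, Sco2, Sdhaf4, Ttc19, Sdhaf3 and Ndufaf8) and 3 fell (Cox19, Coa7 and Cox16), with a median of -0.02. Of 18 citric acid cycle and pyruvate dehydrogenase genes none rose and 2 fell (Ogdh and Pdhx, both -0.39). Of 17 glycolysis entries none rose and 3 fell, namely Tpi1 (-0.73), Gapdh (-0.59) and Hk1 (-0.53). None of 12 genes for cytochrome c, its reductase partner and coenzyme Q synthesis passed, Cycs standing at -0.13 and Cyc1 at -0.02. Of 14 membrane carrier and import genes Phb2 rose (0.62), and of 12 regulators of mitochondrial biogenesis Esrra rose (0.36) and Gabpa fell (-0.53), while Nrf1 (-0.11), Ppargc1a (-0.40) and Yy1 (0.12) did not pass. Of 77 cytosolic ribosomal protein genes 17 rose and 20 fell, and of 78 mitochondrial ribosomal protein genes 5 rose and 7 fell. For the difference with LEV at 1 m minus that at 7 d, Phb2 (0.85), Slc25a4, the ADP/ATP carrier (0.73), and the complex I assembly factor Ndufaf1 (0.61) passed as greater at 1 m, and the complex IV assembly factor Coa3 (-0.58) as smaller. Of the 77 cytosolic ribosomal protein genes 6 were greater and 2 smaller, and of the 78 mitochondrial ones 1 was greater. Over all genes 1.59% were greater and 1.2% smaller. No gene of the other lists in this paragraph passed that test.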

How the data were processed

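CAGE libraries were made from total RNA by cap-trapping with random primers, per the labels' protocols. The deposited table gives CPM for each gene and library, by its name and values. BWA 0.7.17, HISAT2 2.0.5, DESeq2 1.20.0 and GRCm38 are named, with no roles, per the submitters' processing notes. Annotation, counting rule and duplicate removal: not given in the sources used here. All values (100.0%) were whole multiples of what 1 read is worth, within 0.0001, so whole reads and library totals were recovered.

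Tests used limma 3.58.1 (lmFit, eBayes with a trend) on log2(CPM + 1) in R 4.3.3, over 16057 of 22377 genes with a mean of at least 1 CPM, with Benjamini-Hochberg adjustment over all of them and a threshold of 0.05. A fold change on this scale understates the change of low genes. Groups came from the sample labels, with 1 library each. LEV and time were fitted on 4 condition means over sides (1 residual degree of freedom), their interaction on 8 libraries with side as a term (3), and side on 10 libraries with condition as a block (4). In the LEV and time fits, eBayes added a prior of 21.6 degrees of freedom. Their p-values therefore rest mostly on variance shared across genes. With no filter on low values this prior was 4.26, and no member was called for LEV or time. Comparisons with naive and of withdrawal had no test. Alternatives were TMM and quantile scaling, other pseudocounts and filters, no trend, edgeR 4.0.16 and DESeq2 1.42.0 on recovered reads, and leaving out libraries. The fits were tested on simulated data. Members were matched to GENCODE M21 by identifier and version (85 of 85). Intervals of single values are exact Poisson at 95%; they and the floor of 3 reads cover counting error only.

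Named were the 2 most read members of each complex, every member that passed a test, up to 4 per direction of the same sign in every pair with at least 5 CPM, the tissue-restricted forms and partners, the c-ring and core complex I genes, and up to 3 per direction without a test. Uqcrc1, Atp5a1, Ndufv2 as the steadiest, Cox7b and Slc17a7 were named after their values were seen. Members and gene lists were chosen with earlier results of these data known. The values of 1 member are not reported here, though it stayed in every fit and count.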

Additional observations from a re-analysis of the deposited data

Results flagged for a closer look

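For 8 members the difference between libraries with and without LEV itself differed between 1 m and 7 d, by the interaction test (limma, 8 libraries, adjusted p under 0.05). The difference at 1 m minus that at 7 d, on the log2 scale, was 0.72 for Atp5e, 0.72 for Sdhc, 0.61 for Cox7c and 0.54 for Ndufb2. It was -0.62 for Atp5o (ENSMUSG00000022956.11), -0.59 for Sdhb, -0.55 for Ndufb9 and -0.54 for Ndufb10. Both sides had the direction of the call at 1 m for all 8, and each call was lost in at least 4 of the 8 fits without 1 library. No call was made with no filter on low values or with no trend.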

How the results depend on the processing

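Leaving out 1 library at a time, 13 to 22 members were called higher at 1 m than at 7 d (2.34% to 5.91% of all genes). Those called lower numbered 5 to 8 (4.27% to 9.37%). Members called for LEV numbered 0 to 2, all higher (0.0% to 0.286% of all genes). For the interaction such a fit leaves 1 library in a group, and none of the 8 calls was kept in every fit. The lowest counts between times came without the infarcted 1 m library.

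Between 1 m and 7 d the counts were 5 higher and 4 lower with TMM scaling (1.02% and 0.915% of all genes), 0 and 0 without a filter on low values (0.0225% and 0.0853%), 13 and 4 with edgeR (2.39% and 1.7%), 20 and 4 with DESeq2 (3.29% and 1.81%), and 33 and 11 with 8 libraries taken as independent (11.2% and 19.9%), in place of 21 and 8. The members' median was 0.16 with TMM scaling, 0.18 with edgeR and 0.18 with DESeq2, in place of 0.11. The LEV call of Cox8b became 0 calls with TMM scaling, quantile scaling, a pseudocount of 5, no filter, no trend, edgeR, DESeq2, 8 libraries as independent, and without both 1 m libraries low in choroid plexus markers. For the interaction, no filter and no trend gave 0 and 0, and DESeq2 10 and 5 (2.55% and 1.01% of all genes), in place of 4 and 4. The cause was not tested. With a difference of at least 1 on both sides, members higher than naive numbered 2 at 7 d with LEV (0.212% of all genes), 1 at 7 d without it (0.237%), 0 at 1 m with LEV (0.237%), 0 at 1 m without it (0.00623%) and 1 after withdrawal (0.504%). Members lower numbered 0 at 7 d with LEV (0.71%), 2 at 7 d without it (0.766%), 0 at 1 m with LEV (0.199%), 1 at 1 m without it (0.255%) and 0 after withdrawal (1.63%). Withdrawal against 1 m LEV then gave 1 higher and 8 lower, beside 1.2% and 1.77% of all genes. The stricter threshold lowers these counts by construction.

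Members close to 0 between 1 m and 7 d changed sign without passing. Atp5b came to 0.0069 with edgeR and 0.0087 with DESeq2. Cox4i2 came to 0.019 with TMM scaling, 0.061 with quantile scaling, 0.017 with edgeR, 0.033 with DESeq2 and 0.12 without both libraries low in choroid plexus markers, and Cox6b1 to 0.0052, 0.031 and 0.033 with TMM scaling, edgeR and DESeq2. Without both those libraries Cox7a1 came to 0.16, and Ndufs8 came to 0.0031 with edgeR and 0.0050 with DESeq2. Cox8b, called lower at -0.96, lost its call and changed sign without both those libraries, at 0.080. Leaving out 1 library gave -0.12 to 0.092 for Cox4i2, -0.10 to 0.0065 for Cox6b1 and -0.31 to 0.016 for Cox7a1.

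The side comparison, which took condition as a block, called 0 members under every alternative tried, also with no condition block. Over all genes DESeq2 called 10 higher and 4 lower and leaving out the 1 m pair that had no LEV gave 50 higher, and the other alternatives none. The labels give no replicate numbers, so no other pairing was fitted. With 1 library per group there was no measure of the spread within a group.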
